A study of Arabidopsis thaliana with 12 samples.

Results

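Convergent genes are neighbours on opposite strands whose 3′ ends face each other, so that transcription of each runs towards the other. The regions described here are stretches of Arabidopsis chromatin that were more accessible in *h3.3ko* than in Col mature seeds and that lie at such facing ends. They were selected on measured values, since the authors' list of increased regions was itself chosen by the difference in accessibility, and then on position. A region of that list was taken when its midpoint was more than 500 bp from every protein-coding transcription start site (TSS) and within 500 bp of a protein-coding transcription end site (TES) on both the plus and the minus strand. This gave 513 of the 3436 increased regions (14.9%, 95% Wilson interval 13.8 to 16.2%). The 3278 decreased regions played no part in the choice. The 513 regions lie at 506 gene pairs with 1012 different genes.

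The mutant seeds were *h3.3ko*, in which HTR4 and HTR5 were disrupted with CRISPR-Cas9 and HTR8 by a T-DNA insertion, so that all 3 genes for H3.3 are affected. The seeds came from plants that were heterozygous for a pHTR5::HTR5 transgene in the *h3.3ko* background. They were picked by the absence of its mCherry marker, and they grew on mother plants that carried the transgene. The comparison seeds were Col, the WT accession. Each genotype had 2 biological replicates of FACS-sorted nuclei from mature seeds stored for 3 months, and ATAC-seq libraries were made from them. The transposase Tn5 used in ATAC-seq inserts adapters mainly into DNA that nucleosomes leave open. The lists give 1 entry per region and no value per library, so the depth of the libraries and the spread between replicates are unknown here, and no difference in accessibility could be tested. All intervals below are 95% Wilson intervals that cover counting error over regions or genes only. Differences between sets of regions are given side by side and were not tested. The seeds were whole, and a change in part of the tissues cannot be told apart from a smaller change in all of them.

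Histone H3.3 is the replacement form of histone H3, deposited outside of DNA replication. In vegetative plant tissues it is found over transcribed gene bodies, with its level rising towards the 3′ end. In mature seeds the study found it enriched at the 5′ ends and promoters of genes as well as at their 3′ ends. At the 3′ end the transcript is cleaved and polyadenylated while RNA polymerase II runs on past the end before it leaves the DNA. In the compact Arabidopsis genome the 3′ ends of convergent neighbours often abut or overlap, so that a base there may belong to transcripts of both strands.

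The ends of the genes at these regions were close together. They overlapped at 294 of the 513 regions (57.3%, 53 to 61.5%) and were spaced or touching at 219 (42.7%). The overlap had a median of 63.5 bases (quartiles 28.2 and 114.8), and the gap a median of 89 bases (quartiles 37 and 232.5). At 321 regions (62.6%) the ends lay no more than 100 bases apart or overlapped by no more than 100. Counted with overlaps as negative values, the median spacing was -16 bases at the regions and 12 bases over all 5149 annotated convergent pairs whose ends lie within 1000 bp of each other, of which 46.8% overlap. With the gene ends of the longest mRNA in place of the outermost annotated ends, the share of overlapping ends at the regions was 51.6% and the median spacing -4 bases. The values for all annotated pairs are not given with those ends. The rule bounds the spacing from above, since no midpoint can be within 500 bp of both ends when these are more than 1000 bp apart. It also favours close ends, with a mean room for a midpoint of 914.9 bp at overlaps of 1 to 50 bases. This was 415.6 bp at overlaps of more than 200 bases and 433.2 bp at gaps of 200 or more. The spacing at the regions and over all pairs is therefore not compared on equal terms.

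The bases that join some of these pairs are shown because they lie inside an increased region from end to end and show what the junctions look like. They are TAIR10.1 plus-strand sequence from RefSeq, written 5′ to 3′. In the first set, the stretch between spaced ends is given, without the last base of either gene, and capitals mark AATAAA, the canonical polyadenylation signal, or its reverse complement TTTATT.
ATPXG2/IAMT1, chr5:22407352-22407426: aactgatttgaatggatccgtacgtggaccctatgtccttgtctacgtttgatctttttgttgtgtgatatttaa
SRPK4/AT3G53040, chr3:19664554-19664628: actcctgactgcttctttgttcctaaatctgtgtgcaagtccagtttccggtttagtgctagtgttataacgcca
DGAT3/CHR18, chr1:17848339-17848420: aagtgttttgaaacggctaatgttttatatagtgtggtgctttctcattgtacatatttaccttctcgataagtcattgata
RAT5/Fh5, chr5:22197493-22197529: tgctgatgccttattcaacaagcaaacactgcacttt
CHR11/AT3G06410, chr3:1946981-1947011: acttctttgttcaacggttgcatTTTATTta
The CHR11 stretch is the only one of these 5 with a match, a TTTATT, which reads AATAAA on the minus strand.

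Where the genes overlap, capitals mark the bases that lie in both genes, and the flanks bring each window to at most 30 bases.
ABF3/DJ1C, chr4:16298259-16298288: tcaTTTGGGCCCAAGTCAACACCTTTAtta
ASP1/SKdZeta, chr2:13182023-13182052: ctTTAGATTATCATGATTTCATTTCATCat
AT4G28740/PSAE-1, chr4:14202748-14202776: gaagacggttAAGAGAGCTaaccatgagt
ARF1/MTR4, chr1:21984416-21984445: gaacaatggtcaTGGTCAaaaataaaatta
These pairs share 24, 26, 9 and 6 bases in the order shown. The ARF1 window holds an AATAAA just past the shared bases, and the ABF3 window a TTTATT that begins in the shared bases and ends in the flank.

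The midpoint was inside the plus-strand gene alone at 205 regions (40%) and inside the minus-strand gene alone at 217 (42.3%). It fell inside both genes at 46 regions (8.97%) and between spaced ends at 45 (8.77%). Together these last classes hold 91 regions (17.7%, 14.7 to 21.3%). The sizes of the classes follow in part from the short overlaps and gaps, which leave little room for a midpoint at the junction. In the 422 regions with the midpoint in a single gene, it lay a median of 271.5 bp from that gene's TES (quartiles 167 and 373), within a limit of 500 bp set by the rule. From the centre of the ends, the distances of the midpoints were spread over the whole reach of the rule, with 52 regions within 50 bp, 49 at 200 to 250 bp and 71 in the most populated 50-bp step, from 300 to 350 bp. Midpoints were in untranslated exons at 231 regions (45%), in coding sequence at 196 (38.2%), in introns at 41 (7.99%) and outside protein-coding genes at 45.

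**Figure D1:**
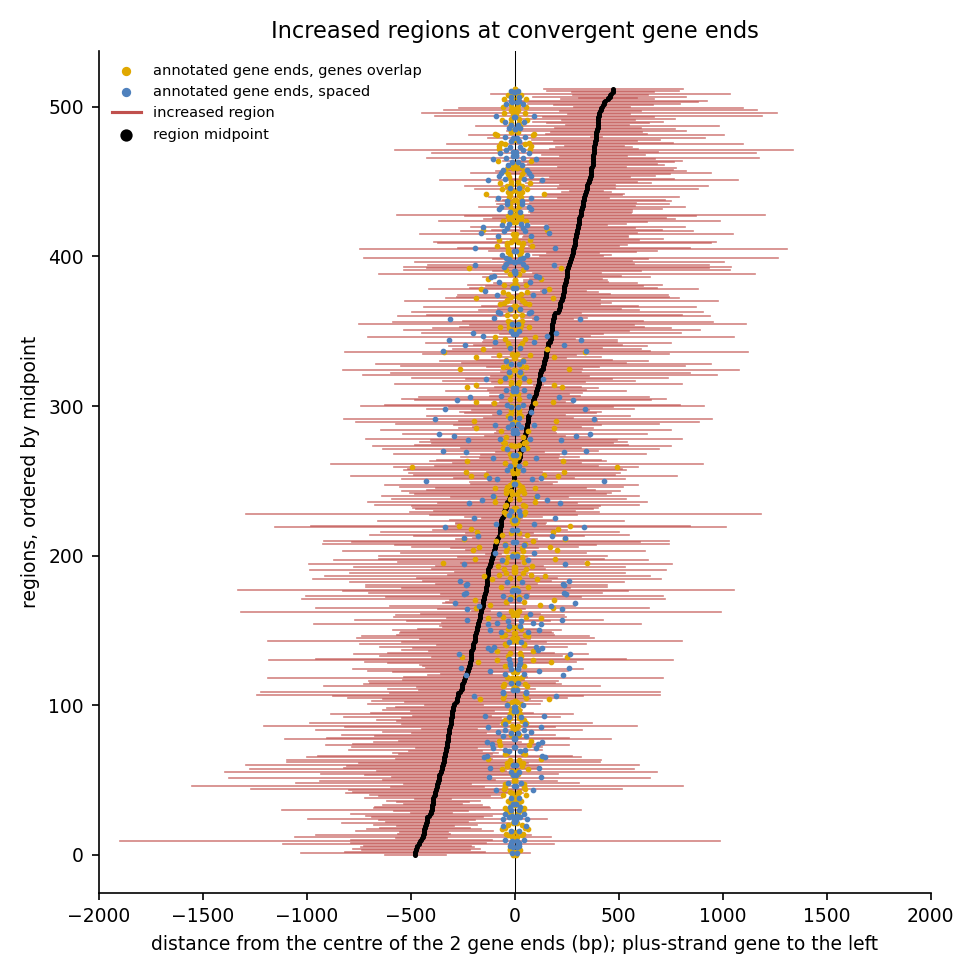
All 513 increased regions (red lines, black dots at the midpoints) drawn about the centre of the 2 gene ends in bp, with the plus-strand gene to the left and regions ordered by midpoint; coloured dots mark the annotated ends. Midpoints were on the side of the plus-strand gene alone at 205 regions and on that of the minus-strand gene alone at 217, and 318 regions covered both ends.

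The region covered both gene ends at 318 of 513 (62%, 57.7 to 66.1%), 1 end at 68 (13.3%) and neither at 127 (24.8%). The share over both ends depends on the limit of the rule, and was 38.4% of 959 regions with gene ends within 1000 bp. Of all 513, 354 (69%) included bases of both genes, 117 (22.8%) lay wholly inside 1 gene of the pair and outside the other, and only 7 (1.36%) lay wholly between the ends. Whether the junction was covered went with width, which the limit on the midpoint largely sets. Regions that covered both ends had a median width of 1016.5 bp, against 487 bp for those that covered 1 end and 401 bp for those that covered neither. Over all 513, widths had a median of 739 bp (quartiles 459 and 1139, range 47 to 2888), beside 709 bp for the 1116 increased regions within 500 bp of a TES on a single strand and away from every TSS, and 750 bp for all 3436 increased regions.

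For each of the 318 regions across both ends, the bases inside either gene were sorted by size. The longer reach had a median of 703.5 bp and the shorter a median of 283 bp, an order that the sorting sets. At 109 of them (34.3%) the region held more than 3 times as many bases of 1 gene as of the other, and at 155 (48.7%) it reached at least 300 bp into each. When the 422 regions with the midpoint in a single gene were turned so that this gene was on the left, 94.3% covered the point 250 bp to its side of the centre, 65.6% the centre itself and 32.2% the point 250 bp into the partner. The excess on the left is set by the turning.

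**Figure D2:**
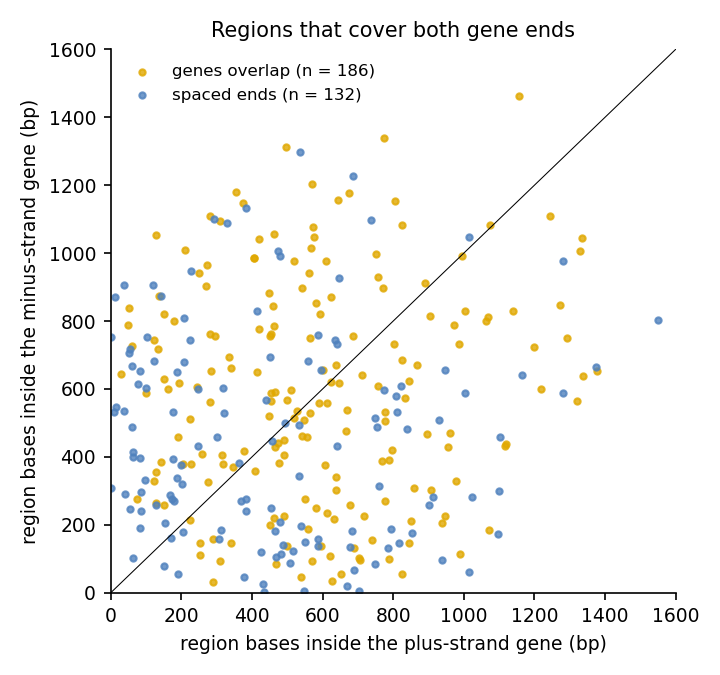
Bases of each region inside the plus-strand gene (x axis, bp) and inside the minus-strand gene (y axis, bp) for the 318 regions that covered both gene ends; 186 lie at overlapping genes and 132 at spaced ends, and the line marks equal reach. The points are spread to both sides of the line, with median reaches of 703.5 bp in the more covered and 283 bp in the less covered gene.

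At 7 pairs there were 2 increased regions. In each of the 7, 1 region was centred in the plus-strand gene and the other in the minus-strand gene, a split that the rule nearly fixes, since separate regions must then share a short stretch. Of these, chr3:727503-728159 covered both gene ends. At E1 ALPHA, which encodes a subunit of pyruvate dehydrogenase, and AT1G59910, a formin-like actin-binding protein, the genes share 23 bases and the regions were chr1:22053210-22053832 and chr1:22054139-22054299, with midpoints 353 and 345 bp from the centre. At BZIP28, a transcription factor of the endoplasmic reticulum stress response, and the RING finger gene AT3G10810, the ends are 6 bases apart and the regions were chr3:3381054-3381605 and chr3:3381898-3382293. The pair of SULTR3;2, annotated as a sulfate transporter, and NET1C overlaps by 96 bases, with regions of 445 and 235 bp. RAB1A, a small GTPase, and AT5G47210 overlap by 153 bases, with regions of 465 and 286 bp. AT5G52580 and MYB82, a myb transcription factor, are 50 bases apart, with regions of 367 and 415 bp. The other pairs were AT3G03140/AT3G03150 and AT4G25610/AT4G25620, which overlap by 16 and 43 bases. An increased region that did not meet the rule overlapped either gene at 65 of the 505 annotated convergent pairs with a region at their ends (12.9%, 10.2 to 16.1%), beside 675 of the 4644 without one (14.5%, 13.6 to 15.6%).

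Some regions were centred on the junction. The pairs with a gene symbol on both sides whose region was nearest to the centre were ATPXG2/IAMT1, VIP1/EMB1075 and PTAC9/MORF1, with midpoints 3.5, 11.5 and 13.5 bp from it. ATPXG2 encodes a peroxygenase and IAMT1 a methyltransferase that acts on the auxin indole-3-acetic acid. Their region, chr5:22406859-22407926, was 1068 bp wide and held the 75 bases printed above with 493 bases of ATPXG2 and 500 bases of IAMT1. VIP1 encodes a bZIP transcription factor, and its region with EMB1075 was 617 bp wide over an overlap of 98 bases.

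**Figure D3:**
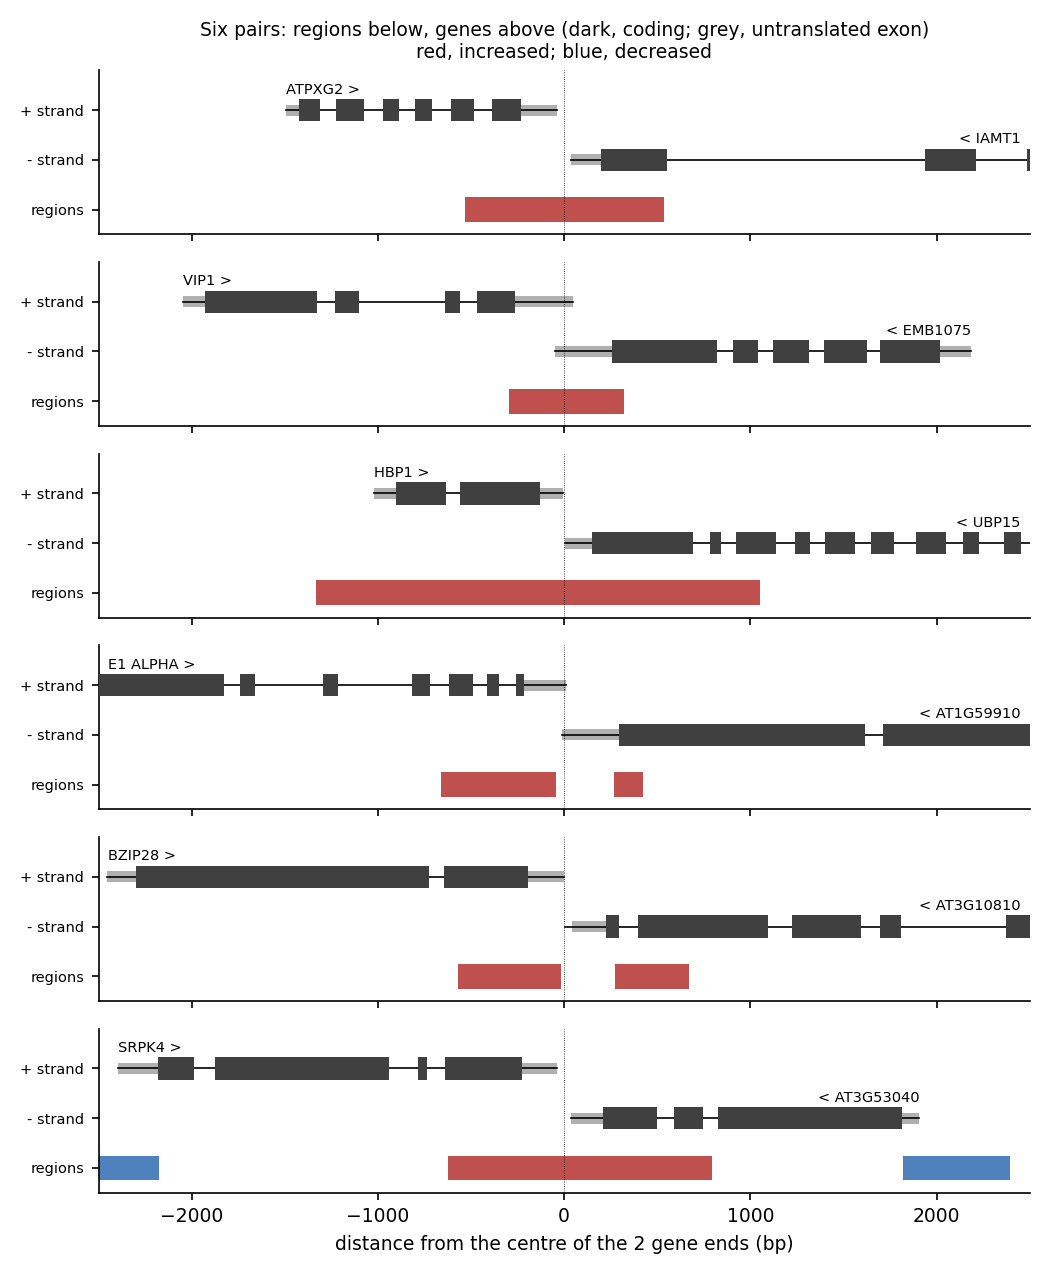
Pairs of convergent genes drawn to scale by distance from the centre of the gene ends in bp, with genes above (dark boxes coding, grey boxes untranslated exons, lines introns, longest mRNA) and regions below (red increased, blue decreased). The regions at ATPXG2, VIP1, HBP1 and SRPK4 run across both ends, whereas E1 ALPHA and BZIP28 have 1 region to each side of the junction.

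The extremes of the set show how different the loci were. The largest overlap of genes was 986 bases, between the protein kinase gene AT3G13670 and AT3G13672, where the region of 1173 bp was centred 4.5 bp from the middle. HSP93-III, a Clp ATPase of the chloroplast, overlaps AT3G48860 by 695 bases, and AT4G01280 overlaps AT4G01290 by 681. The widest gaps were 853 bp at AT4G20840/TPP2, 763 bp at RAP2.10/LEJ2 and 723 bp at AT2G02700/PLPB, all with the midpoint between the ends. The widest regions were 2888 bp at HIPP27/AT5G66120, 2476 bp at AT5G01290/AT5G01300 and 2383 bp at HBP1/UBP15. The last, chr1:5844338-5846720, ran over the whole of HBP1, a SOUL heme-binding gene, and into UBP15, a ubiquitin-specific protease. It was among 9 regions (1.75%) that included a TSS although their midpoint was over 500 bp from it. The narrowest were 47 bp at ftsh7/AT3G47070, 52 bp at BSK3/SK32 and 71 bp at FKF1/MAP70-1. FKF1 is a blue-light receptor of flowering time control and BSK3 a kinase of brassinosteroid signalling.

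The limits of the rule cut through a continuous range. Just inside the limit for the farther gene end were AT5G39510/AT5G39520 and AT3G13930/AT3G13940 at 499.5 and 497.5 bp, and just outside it AT3G61950/AT3G61960 and AT3G07650/AT3G07660 at 500.5 and 501.5 bp. For the nearest TSS, the regions just inside were at 515.5, 520.5 and 546.5 bp (AT5G40155/AT5G40160, AT2G37140/AT2G37150 and AT3G22200/AT3G22210), and those just outside at 487, 473.5 and 447 bp. In all, 29 further increased regions met both end distances but were within 500 bp of a TSS.

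An increased region that met the rule was present at 505 of the 5149 annotated convergent pairs (9.81%, 9.03 to 10.7%). One further pair, AT1G19397/AT1G19400, is not made up of genes that are each other's nearest. The share was 15.5% (13.2 to 18.2%) where the genes overlap by 1 to 50 bases and 13.2% (10.6 to 16.2%) at gaps under 50. It was 5.91% at overlaps of more than 200 bases and 4.59% (3.6 to 5.82%) at gaps of 200 or more. Much of this fall is built into the rule, because the stretch in which a midpoint could lie averaged 914.9 bp at overlaps of 1 to 50 bases and 433.2 bp at the widest gaps. At overlaps of more than 200 bases it averaged 415.6 bp. Per Mb of that stretch there were 142.2 regions at overlaps of more than 200 bases, 173.8 at overlaps of 1 to 50 bases, 151.9 at gaps under 50 and 105.9 at the widest gaps. By chromosome, the share of pairs with a region ranged between 8.82% on chromosome 2 and 10.9% on chromosome 4, with overlapping intervals.

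**Figure D4:**
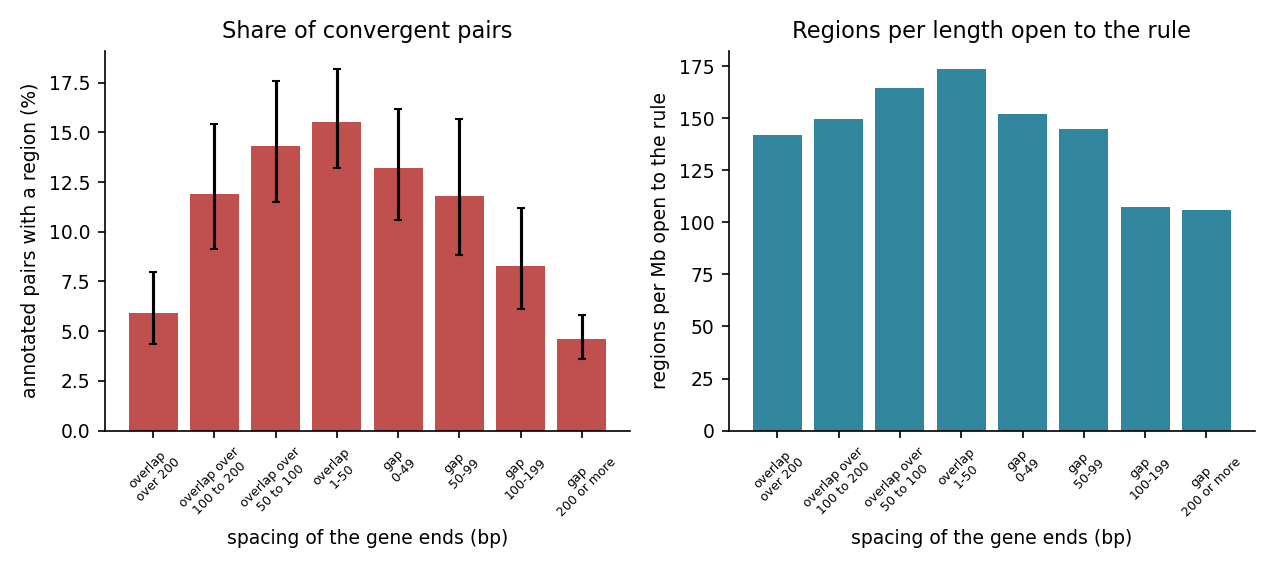
Left, percentage of annotated convergent pairs with an increased region by the spacing of their ends in bp (bars, 95% Wilson intervals); right, regions per Mb of sequence in which a midpoint could meet the rule. Pairs that overlap by 1 to 50 bases had the highest values in both plots, 15.5% and 173.8 per Mb, and pairs with gaps of 200 bp or more the lowest, 4.59% and 105.9 per Mb.

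Coverage of gene ends by any increased region does not use the midpoint rule, although the 513 regions are part of it. Among genes of at least 2500 bp, ends with a convergent end of another such gene within 200 bp (n = 1017 gene ends, so that most pairs enter from both sides) were compared with ends without a convergent end within 1000 bp (n = 6123). At the convergent ends, coverage was 23.8% (21.3 to 26.5%) at 400 bp inside the gene, 20.6% (18.3 to 23.2%) at the TES and 22.9% (20.4 to 25.6%) at 350 bp past it, inside the partner. At the ends without a convergent neighbour it was 18.4% at 400 bp inside the gene, 9.1% at the TES and 3.64% at 350 bp past it. Adding this second curve to its own mirror image gave 21.5% at 400 bp inside, 18.2% at the TES and 21.3% at 350 bp past the end. The convergent value was above the sum at each 50-bp step from 550 bp inside the gene to 500 bp past its end. The difference was largest, 2.96 points, at 50 bp to either side of the TES, with 20.7% (18.4 to 23.3%) against 17.8%. The intervals are too narrow because most pairs enter from both sides, and the difference from the sum was not tested. At 1000 bp inside the gene the convergent value was 10.5% and the sum 11%.

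**Figure D5:**
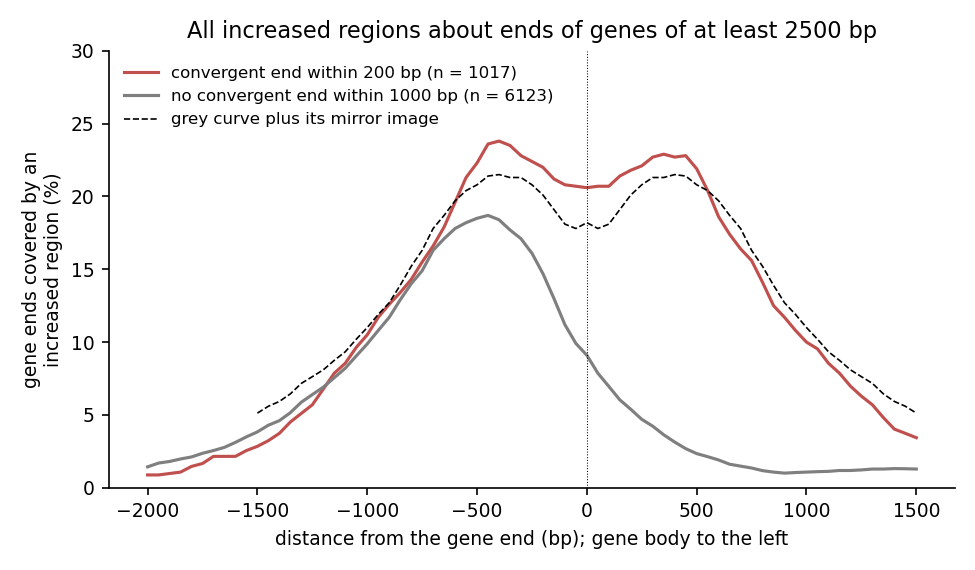
Percentage of gene ends covered by any increased region (y axis) against distance from the TES in bp, gene body to the left, for genes of at least 2500 bp: red, convergent end within 200 bp (n = 1017); grey, no convergent end within 1000 bp (n = 6123); dashed, the grey curve plus its mirror image. The red curve stays between 20.6% and 23.8% from 400 bp inside the gene to 350 bp past its end, while the grey one is at 18.4% and 3.64% at those points.

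Taken gene by gene, with genes of at least 1500 bp, a midpoint of an increased region lay in the last 500 bp of the gene in 8.53% (7.92 to 9.18%) of the 7548 genes with a convergent end within 1000 bp and in 6.73% (6.29 to 7.2%) of the 11572 genes without one. In the 500 bp before that, the shares were 5.27% and 5.41%. By gene length, the shares in the last 500 bp were 4.89% (4.22 to 5.66%) and 3.43% (2.98 to 3.95%) at 1500 bp to under 2500 bp. They were 11.8% (10.6 to 13%) and 9.86% (9 to 10.8%) at 2500 bp to under 4000 bp, and 11.3% (9.71 to 13.1%) and 9.24% (8.02 to 10.6%) in longer genes, with overlapping intervals in both of these classes. A midpoint inside overlapping genes counts for each of them. By the spacing of the ends, the share was 8.93% for overlapping ends, 8.2% for gaps under 200 bp and 8.09% for gaps of 200 bp or more.

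In sequence, the regions were mostly exon. Of their bases, 42.4% were coding, 37% were untranslated exon, 14% intron and 6.66% outside protein-coding genes, and 5.38% lay in genes of both strands. For increased regions at an end on a single strand, the values were 33.6% coding, 30.5% untranslated exon, 11.2% intron and 24.7% outside genes. The rule asks for a second gene end within 500 bp of each midpoint, which bears on the share outside genes. Where the ends overlapped, 0.24% of the bases of the regions were outside genes, against 15.3% where they were spaced. That difference is largely set by the gap itself. The regions had a median GC content of 38.9% and a median observed/expected CG ratio of 0.602, close to 39.2% and 0.625 for all increased regions, whereas decreased regions had a CG ratio of 1.02. AATAAA or TTTATT was present in 65.7% of the regions. This was 65.9% at ends on a single strand, 62.4% for all increased and 75% for all decreased regions. In the central 200 bp, 20.9% (17.6 to 24.6%) of the regions had a match. There the values were 24% at ends on a single strand, 20.5% for all increased and 45.1% for all decreased regions. Windows of 200 bp about the centre of the gene ends held a match in 40.2% of pairs with a region and 39.6% of pairs without, so the 2 sets of pairs had nearly the same value. On the gene's own strand, AATAAA was found in the last 50 bp before the annotated end of 8.6% of the genes at the regions and of 9.77% of all protein-coding genes.

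The genes at the regions were long. Their median length was 2740 bp with 6 exons in the longest mRNA, beside 2956 bp and 6 exons for genes at increased ends on a single strand and 2078 bp and 4 exons for all protein-coding genes. Where the midpoint was in a single gene, that gene was the longer of the pair in 258 of 422 cases (61.1%, 56.4 to 65.7%). When both genes were at least 2000 bp long the share was 54.4% (47.9 to 60.7%). The distance rule for the TSS keeps midpoints out of the ends of the shortest genes, which bears on both comparisons.

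Some of the genes also had a decreased region at their start. A decreased region had its midpoint within 500 bp of the TSS in 204 of the 1012 genes (20.2%, 17.8 to 22.7%), beside 22% of genes at increased ends on a single strand and 10.3% of all protein-coding genes. In 317 pairs (62.6%) this held for neither gene, in 174 pairs (34.4%) for 1 gene, and in 15 pairs (2.96%) for both. The same shares over all annotated convergent pairs are not given here, so these have no comparison. Among the 15 were SRPK4 and the late embryogenesis abundant (LEA) protein gene AT3G53040, with an increased region of 1420 bp (chr3:19663967-19665386) over the 75 bases between them. DGAT3, a diacylglycerol acyltransferase of oil synthesis, and CHR18, annotated as a chromatin remodelling factor, had a region of 623 bp. HSF3, a heat shock factor, and SYP21 had a region of 509 bp inside SYP21. HVA22K and GBF1, a bZIP factor that binds G-boxes, had one of 344 bp inside GBF1, of which 53 bases were also in HVA22K, and AT5G16550 and KAN, a regulator of leaf polarity, one of 327 bp inside AT5G16550. The remaining pairs included ARK2/EDA10, ATSYTF/SHH2 and EMB3011/EML3.

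Genes of seed biology were looked up in lists matched by words in annotated names. Of seed storage, LEA and oleosin genes, 10 of 228 were at the regions, which is 0.988% of the genes there and 0.831% of all protein-coding genes. OLEO1 and OLEO2 encode oleosins, which coat the oil bodies of seeds. In both pairs the region was centred in the gene on the minus strand, which is the acid phosphatase gene AT4G25150 beside OLEO1 and OLEO2 itself beside AT5G40410. The regions were chr4:12901631-12902137 and chr5:16173411-16174032, and neither covered a gene end. AT1G52330, in the list by its family name (LEA hydroxyproline-rich glycoprotein), is paired with ABA2, which encodes an enzyme of abscisic acid synthesis. The region of 353 bp was inside ABA2.

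Of 21 genes with abscisic acid or ABA in their annotated name, 3 were at the regions (0.296% of genes at the regions, 0.0765% of all genes). The words miss ABA2 and also ABF4, a further bZIP factor of abscisic acid responses, which overlaps AT3G19300 by 6 bases under a region of 1436 bp over both ends. Genes that the words miss and that are not at a region are not given here. The value is therefore no count of abscisic acid genes. ABF3 encodes a bZIP factor that binds abscisic acid responsive elements, and it overlaps DJ1C by 24 bases under a region of 756 bp. HAI3 encodes a protein phosphatase that restrains abscisic acid signalling, and its region with SMO2-2 was 1400 bp wide and covered both ends. ABA4, needed for abscisic acid synthesis, is 491 bp from DIN9, with the midpoint between the ends. That region covered the end of DIN9, with 107 bases of DIN9 and 0 bases of ABA4. PIL5, a phytochrome-interacting factor known to repress germination in the dark, overlaps AT2G20170 by 334 bases. The region of 709 bp lay wholly inside AT2G20170 and covered the end of PIL5, with 243 bases also in PIL5. Annotated names with the words of the light and clock list (phytochrome, cryptochrome, circadian or pseudo-response) were found for PIL5 and for APRR8, annotated as a pseudo-response regulator (0.198% of genes at the regions, 0.138% of all genes). These words miss other light genes at the regions, such as FKF1 and the SPA1-related genes SPA3 and SPA4, so the value is no count of light genes. The auxin list had 5 of 191 genes (0.494% and 0.696%), among them the auxin response factors ARF1 and NPH4. None of the 27 gibberellin, 41 ethylene, 7 RAN GTPase or 3 H3.3 genes was at a region. These lists are 0.0984%, 0.149%, 0.0255% and 0.0109% of all genes. At such shares few or none would be met, so their absence says little.

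The heat shock and chaperone list had 24 of 292 genes (2.37% of the genes at the regions and 1.06% of all protein-coding genes). It was described only, and the length of the genes was not allowed for. HSP101, a disaggregase needed for heat tolerance, overlaps AT1G74300 by 101 bases, and the region of 1706 bp (chr1:27936113-27937818) held 1311 bases of HSP101. HSP90.1 was 393 bp from AT5G52650, and its region of 1206 bp held 679 bases of HSP90.1. At HSP70 and cpHsc70-2 the region was inside the partner, with 652 bp in FYD and 328 bp in AT5G49920. Pairs of a MYB gene and a DnaJ and myb-like gene occurred at 2 places. MYB65/AT3G11450 overlap by 47 bases with a region of 1218 bp, and MYB33/AT5G06110 are 27 bases apart with a region of 1861 bp. Both regions covered both ends.

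Chromatin genes numbered 11 of 214 (1.09% of genes at the regions, 0.78% of all genes). They included CHR11, a remodeller of the ISWI type, whose region of 1105 bp was centred in it, the acetyltransferase genes HAG1 and HAM1, the deacetylase gene HDA2, and RAT5, a histone gene. At HAG1/BZIP25 and AT5G64600/HAM1 the midpoint was in the gene on the minus strand, BZIP25 and HAM1. SHAGGY-like kinase genes numbered 3 of 11 (0.296% and 0.0401%), namely SKdZeta, ATSK12 and SK32. Genes for RNA 3′ processing numbered 3 of 31 (0.296% and 0.113%), among them PAPS2, a poly(A) polymerase that overlaps OVA4 by 107 bases. Some lists had a share among the genes at the regions close to or below that of all genes, with protein kinases at 3.26% and 4.41%, E3 ubiquitin ligases at 2.47% and 3.73%, ribosomal proteins at 1.28% and 1.41%, and pentatricopeptide proteins at 0.889% and 1.02%. Genes of photosystems and chlorophyll were at 0.296% and 0.288%.

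Non-coding genes were annotated under a minority of the regions. A non-coding gene was overlapped by 50 of the 513 (9.75%, 7.47 to 12.6%), beside 7.97% (6.53 to 9.71%) of increased regions at an end on a single strand and 6.2% of all increased regions. A long non-coding RNA gene was present at 27 regions (5.26%, 3.64 to 7.55%), against 3.14% at ends on a single strand. A tRNA gene was present at 13 regions (2.53%), against 2.96%. The tRNA gene AT5G18755, for example, lies in the gap of 169 bp between AT5G18750 and AT5G18760, whose region was centred 4 bp from the middle of the ends. MIR413, MIR834, MIR860 and MIR5657 were the miRNA genes at the regions. With starts and ends of all genes other than pseudogenes in the rule, 482 regions were found, of which 464 were among the 513.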

How the data were processed

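ATAC-seq was from *h3.3ko* and Col mature seeds, 2 libraries each, among 12 libraries in 6 groups; the other groups were not analysed here. Per the labels and the study's methods, the authors trimmed with fastp 0.20.1, aligned with Bowtie2 against TAIR10, discarded organelle and duplicate reads (Picard 2.24.0), took MACS2 peaks found in both replicates, merged both genotypes and scored peaks with deepTools. They listed peaks past their fold and adjusted *P* limits. The test behind the *P* value and any Tn5 shift are not given in the sources used here. The deposited lists hold positions and a log2 fold change by the authors, *h3.3ko* over Col, which was not used.

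Positions, counted from 1, were joined to TAIR10.1 genes from RefSeq. The members, gene lists and comparisons were chosen with earlier results of these data known. Genes were named by the rules of largest and smallest spacing, width and distance, pairs with 2 regions, decreased regions at both starts, and lists matched by words in annotated names; genes outside these were chosen after their values were seen. Some list matches rest on a family name alone. No statistical tests were made. The code that applies the rule was checked on simulated regions. As a check of coordinates, all increased regions were shifted: 410 and 416 met the rule after shifts of 500 bp to either side, and 194 and 198 after 1000 bp. The share that covered a TES hardly moved at 500 bp, from 41.3% unshifted to 40.2% and 40.6%. After 1000 bp it was 21.5% and 21.2%. Python 3.11.15, NumPy and SciPy were used.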

Additional observations from a re-analysis of the deposited data

How the results depend on the processing

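Of 49 alternative values, 32 stayed within 1.5 times the reported count or inside the interval of the reported value. With gene ends within 250 bp, 178 regions remained, 67.4% with overlapping ends, 21.3% with the midpoint between or within both ends and 92.7% over both ends, at a median width of 848 bp. Within 1000 bp there were 959 regions, with 50.3%, 13.1% and 38.4%, and a median spacing of -1. A region that overlaps both ends covers them in 100% of cases by construction, at a median width of 1120 bp (371 regions, 318 of them among the 513). With ends of the longest mRNA, ends overlapped at 51.6% and the median spacing was -4. Any overlap with ends widened by 250 bp marked 18% of convergent pairs, and pairs at most 500 bp apart held a region in 11.4%. The central 200 bp held AATAAA or TTTATT in 20.9%. The limits of 250 or 1000 bp for the TSS moved none of these values beyond its interval. No paired analysis was possible because the lists hold no value per library. The files give no depth, so which regions could be detected at gene ends is unknown, and annotated gene ends may differ from those used in seeds.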
